A study of Mus musculus with 16 samples.

Results

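The genes of fibroblast growth factor (FGF) reception and feedback were followed in cells of the mouse coronal suture: the receptors Fgfr1, Fgfr2 and Fgfr3, and the genes Spry1, Spry2, Spry4, Spred1, Dusp6, Etv4 and Etv5, which are read as feedback of the pathway. They were chosen by name, as 10 of the 22180 genes that had a probe set annotated to 1 symbol, and each was measured by its brightest such probe set. Of the 10, 9 were among the 13453 genes bright enough to be tested, with a mean log2 level of at least 3.905, and Fgfr3 was not. FGF ligands bind receptor tyrosine kinases on the cell surface, and the receptors pass the signal through Ras and the kinase ERK into the nucleus. ERK signalling induces the ETS transcription factors Etv4 and Etv5 and a set of inhibitors that damp the same cascade: the Sprouty and Spred proteins, which act on Ras and Raf, and Dusp6, a phosphatase that removes the activating phosphates from ERK. In the skull, activating mutations of the human FGFR1, FGFR2 and FGFR3 genes cause premature suture fusion, as does loss of a copy of TWIST1.

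RNA was measured on 16 Affymetrix whole-transcript arrays. The cells came from the coronal suture, where the frontal bone meets the parietal bones, of C57BL6 mice that were Twist1+/- or wild type. Twist1 is a DNA-binding protein of the helix-loop-helix class, made in mesenchyme. Cells were fed DMEM with thyroxine, the hormone that the thyroid secretes most (-6 as log10 of mol per liter), or DMEM alone as the control, and RNA was taken after 7 or 3 days. The 8 groups were Twist1+/- with thyroxine and Twist1+/- control at 7 and at 3 days, and wild type with thyroxine and wild-type control at the same days. Each group held 2 arrays, 1 of female and 1 of male cells. The sources used here give neither donor age nor the mutant Twist1 allele. Animals of 2 litters were sorted by sex and genotype, so the arrays are taken here as coming from 4 cultures, 1 for each genotype and sex, with 4 arrays each. Each condition of a culture had 3 wells, and the sources used here do not say whether these were pooled. The p-values below therefore measure the spread between arrays of these cultures, which may be technical in part, and not the spread between animals. The number of arrays limits the precision. Levels are the deposited log2 values, differences are on the log2 scale, and levels of different genes were not compared because probes differ in brightness. Sets of 4 levels of a genotype and day follow the order female with thyroxine, female control, male with thyroxine and male control.

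The 4 arrays of the wild-type male culture stood apart from the other 12. Markers of suture mesenchyme and osteoblasts, a list of 15 measured genes, averaged 7.12 to 7.35 on those arrays and 7.97 to 8.31 on the others. Col1a1, a collagen gene of mesenchymal cells, was bright on all 16 arrays (11.75 to 12.93), while the osteoblast factor Sp7 (mean 3.87) and the hedgehog target Gli1 (3.44) lay below the level used for testing. Macrophage markers were also bright, and all 14 measured genes of that list passed the level used for testing. Their mean was 9.96 and 10.29 on the wild-type male arrays at 7 days and 9.89 and 9.93 at 3 days. Elsewhere it was 9.84 to 10.10 at 7 days and 7.98 to 8.90 at 3 days. These are bulk samples, in which fewer cells of a type and less RNA per cell cannot be told apart. Twist1 itself averaged 7.14 ± 0.35 in Twist1+/- and 6.82 ± 0.64 in wild-type cells (SD, n = 8 arrays each). It was lowest in the wild-type male culture, at 6.28. The sources used here do not say whether its probe set lies in the part of the gene that the mutant allele lacks, so it is no check of the genotypes, which are those of the labels.

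The promoters of 4 members are shown because these passed between the days, Dusp6, Spred1 and Etv5 as higher at 7 days and Fgfr2 as lower. Each is the 250 bases before the gene's start in RefSeq's GRCm38.p6, 5′ to 3′ on the gene's strand. The intervals are chr7:130266809-130267058 (minus strand) for Fgfr2, chr10:99262981-99263230 (plus strand) for Dusp6, chr2:117120821-117121070 (plus strand) for Spred1 and chr16:22439571-22439820 (minus strand) for the upstream of 2 Etv5 entries. Capitals mark AGGAAG, a motif bound by ETS factors of the Etv4 and Etv5 family, or its reverse complement CTTCCT.
Fgfr2: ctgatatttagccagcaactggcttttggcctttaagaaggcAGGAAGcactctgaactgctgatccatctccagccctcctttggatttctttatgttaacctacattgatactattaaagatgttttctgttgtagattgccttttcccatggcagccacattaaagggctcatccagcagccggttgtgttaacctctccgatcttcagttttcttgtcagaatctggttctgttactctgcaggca
Dusp6: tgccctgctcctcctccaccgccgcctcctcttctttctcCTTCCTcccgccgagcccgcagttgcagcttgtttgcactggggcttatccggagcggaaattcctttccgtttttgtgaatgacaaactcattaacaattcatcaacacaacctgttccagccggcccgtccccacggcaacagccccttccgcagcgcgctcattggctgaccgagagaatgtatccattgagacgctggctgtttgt
Spred1: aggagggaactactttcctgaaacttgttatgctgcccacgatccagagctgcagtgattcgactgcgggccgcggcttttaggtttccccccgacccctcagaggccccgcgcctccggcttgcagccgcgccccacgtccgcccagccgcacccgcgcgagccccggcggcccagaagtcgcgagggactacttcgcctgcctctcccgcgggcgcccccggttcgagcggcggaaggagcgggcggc
Etv5: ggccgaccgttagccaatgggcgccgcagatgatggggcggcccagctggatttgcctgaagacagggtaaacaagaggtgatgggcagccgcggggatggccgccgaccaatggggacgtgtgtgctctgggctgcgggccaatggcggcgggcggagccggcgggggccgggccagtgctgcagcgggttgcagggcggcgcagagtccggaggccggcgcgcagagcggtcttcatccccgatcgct
The motif was present once in the Fgfr2 window and once in the Dusp6 window and not in those of Spred1 and Etv5, while 29.5% of all 32851 promoter entries held it on either strand. The variant CCGGAA was in none of the 9 entries used, which covered 7 of the members, against 12.0% of all entries. Any member entry on the chromosome of Spry4 was left out, while the share of all entries kept that chromosome. The E-box CANNTG, the motif class of helix-loop-helix factors such as Twist1, was present in the Fgfr2, Dusp6 and Etv5 windows, and in 66.2% of all entries. A match is a description of the letters and not a site.

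**Figure D1:**
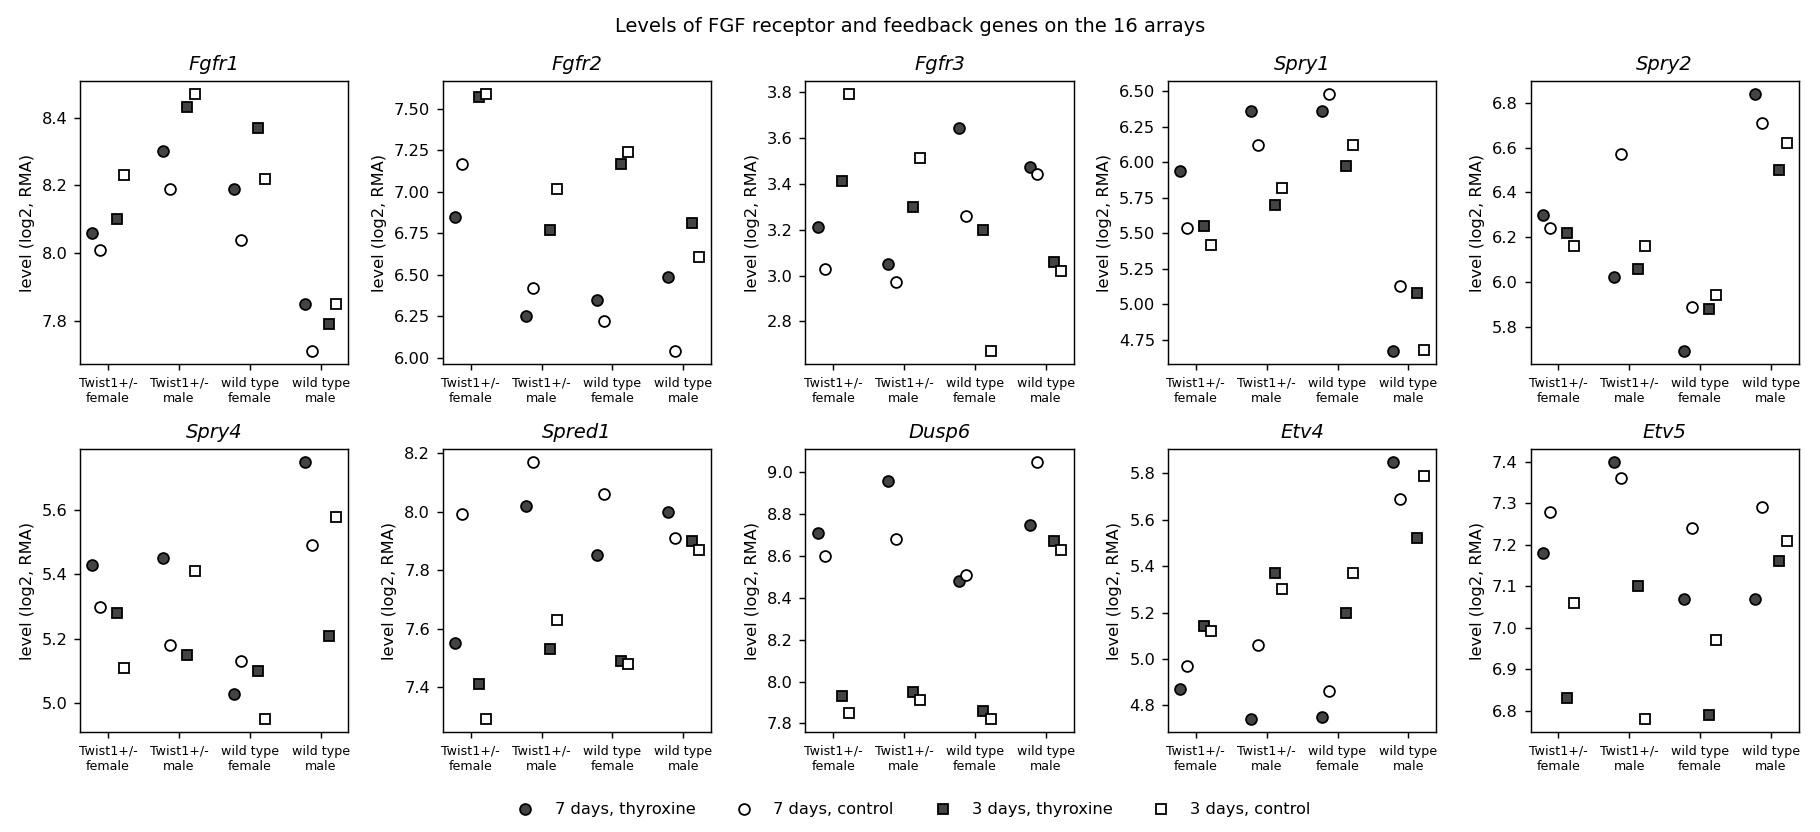
Level (log2, RMA) of each member on the 16 arrays, by culture on the horizontal axis. Circles are 7 days and squares 3 days, dark symbols thyroxine and open symbols control. Fgfr2 sits lower at 7 days in all 4 cultures, Dusp6 sits higher, and the wild-type male culture stands apart for Fgfr1, Spry1 and Etv4.

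More members passed for time in culture than for genotype or thyroxine. The same held for all tested genes, of which 0% passed for genotype and 0.0966% for thyroxine. Between 3 and 7 days Fgfr2 fell, while Dusp6, Spred1 and Etv5 rose, Etv5 by its brighter probe set and not by its second. These were 4 of the 9 tested members, 3 higher and 1 lower, at an adjusted p under 0.05 in limma over both genotypes and media. Of all tested genes 18.5% passed the same test, 9.84% higher and 8.69% lower. The median difference of the 9 members was 0.12, against -0.02 for all tested genes, and the median size regardless of sign was 0.25, against 0.12.

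Among the receptors, Fgfr2, whose mesenchymal and epithelial splice forms bind different FGFs, had levels of 6.85, 7.17, 6.25 and 6.42 on the Twist1+/- arrays at 7 days, against 7.57, 7.59, 6.77 and 7.02 at 3 days. Its wild-type levels were 6.35, 6.22, 6.49 and 6.04 at 7 days, against 7.17, 7.24, 6.81 and 6.61 at 3 days. The wild-type arrays of the 2 days did not overlap, whereas the Twist1+/- ones did, since the female culture was the higher at both days. Fgfr2 was lower at 7 days in 8 of 8 comparisons of the same culture and medium, by 0.32 to 1.02. The fit gave a fall of 0.62 ± 0.09 (SE, adjusted p = 0.000692, limma), or 1.54-fold lower at 7 days. It fell by 0.565 ± 0.13 in Twist1+/- cells (adjusted p = 0.0112), and in wild-type cells the difference was -0.68 ± 0.13 without passing (adjusted p = 0.0667). The Twist1+/- call was lost without the 3-day female thyroxine array (-0.50, adjusted p = 0.0705) and without the 7-day male control array (-0.51, adjusted p = 0.0569). The wild-type difference passed without the 3-day male control array (-0.76, adjusted p = 0.0431) or the 7-day male thyroxine array (-0.84, adjusted p = 0.0159). With the culture as a fixed block, which removes the differences between cultures, the wild-type difference passed (adjusted p = 0.0108). It was 1 of 2 members to do so, against 3.81% of all tested genes. The test of the difference between the genotypes did not pass (0.12 ± 0.18, adjusted p = 0.867).

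Fgfr1, the main mesenchymal receptor, was lower at 7 days in 7 of 8 comparisons, with a fitted difference of -0.14 ± 0.08 (SE, adjusted p = 0.296, 95% interval -0.32 to 0.05) that did not pass. Fgfr3, a receptor best known as a brake on cartilage growth, had levels of 3.21, 3.03, 3.05 and 2.97 in Twist1+/- cells at 7 days, against 3.41, 3.79, 3.30 and 3.51 at 3 days. In wild-type cells it had 3.64, 3.26, 3.47 and 3.44 at 7 days, against 3.20, 2.67, 3.06 and 3.02 at 3 days. The days did not overlap in either genotype and lay in opposite order. Among the tested genes, which leave out Fgfr3, the days did not overlap for 20.4% in Twist1+/- and 5.48% in wild-type cells. Genes with opposite order were not counted. All 16 values were below the level used for testing.

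Among the inhibitors, Dusp6 had levels of 8.71, 8.60, 8.96 and 8.68 on the Twist1+/- arrays at 7 days, against 7.93, 7.85, 7.95 and 7.91 at 3 days. The wild-type arrays gave 8.48, 8.51, 8.75 and 9.05 at 7 days, against 7.86, 7.82, 8.67 and 8.63 at 3 days. The Twist1+/- arrays of the 2 days were far apart, and among the wild-type arrays at 3 days the 2 male ones were already at the 7-day level. The fit gave a rise of 0.64 ± 0.08 (SE, adjusted p = 0.000469, limma), 1.56-fold, with the same sign in 8 of 8 comparisons. Within Twist1+/- cells the rise was 0.83 ± 0.12 (adjusted p = 0.00125). Within wild-type cells the difference was 0.45 ± 0.12 and did not pass (adjusted p = 0.102), but it passed with the culture as a fixed block (adjusted p = 0.0268). The difference between the genotypes, 0.375 ± 0.17, did not pass (adjusted p = 0.5701). A second, dimmer Dusp6 probe set (mean 2.98) was higher at 7 days in 4 of 8 comparisons, and the mean of both probe sets gave a smaller rise of 0.38 ± 0.09 (adjusted p = 0.00917).

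Spred1, a Sprouty-related inhibitor that recruits the Ras regulator neurofibromin, had levels of 7.55, 7.99, 8.02 and 8.17 in Twist1+/- cells at 7 days, against 7.41, 7.29, 7.53 and 7.63 at 3 days. Wild-type levels were 7.85, 8.06, 8.00 and 7.91 at 7 days, against 7.49, 7.48, 7.90 and 7.87 at 3 days. The days overlapped in both genotypes, through 1 low female array with thyroxine at 7 days in Twist1+/- cells and through the male arrays in wild-type cells. It rose by 0.37 ± 0.07 (SE, adjusted p = 0.00418, limma) and was higher at 7 days in 8 of 8 comparisons. In Twist1+/- cells it rose by 0.47 ± 0.10 (adjusted p = 0.00984), and in wild-type cells the difference of 0.27 ± 0.10 did not pass (adjusted p = 0.215). The Twist1+/- call was lost without the 7-day female control array (0.44, adjusted p = 0.05004) and without the 7-day male thyroxine array (0.40, adjusted p = 0.0601). The difference between the genotypes was 0.20 ± 0.14 (adjusted p = 0.712).

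The 3 Sprouty genes did not pass. Spry1 was higher at 7 days in 7 of 8 comparisons, by 0.28 ± 0.20 (SE, adjusted p = 0.368), with the exception in wild-type male cells with thyroxine (-0.41). Its culture means differed widely, and with the culture as a fixed block the same difference passed (0.28 ± 0.09, adjusted p = 0.0374), when 23.6% of all tested genes did. Spry2 (0.09 ± 0.12) and Spry4 (0.12 ± 0.10) were higher in 5 of 8 comparisons each, with adjusted p of 0.661 and 0.435.

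Of the ETS factors, Etv5 passed and Etv4 did not. Etv5 had levels of 7.18, 7.28, 7.40 and 7.36 in Twist1+/- cells at 7 days, against 6.83, 7.06, 7.10 and 6.78 at 3 days, with no overlap. The wild-type levels of Etv5 were 7.07, 7.24, 7.07 and 7.29 at 7 days, against 6.79, 6.97, 7.16 and 7.21 at 3 days, with overlap. The fit gave a rise of 0.25 ± 0.07 (SE, adjusted p = 0.0340, limma) overall and of 0.36 ± 0.10 in Twist1+/- cells (adjusted p = 0.0355), and 0.135 ± 0.10 in wild-type cells without passing (adjusted p = 0.562). A second, dimmer Etv5 probe set did not show this: its difference was -0.065, higher at 7 days in 3 of 8 comparisons, and with the mean of both probe sets the call was lost (0.09, adjusted p = 0.493). The overall Etv5 call held in 5 of 16 fits that left out 1 array, those without a wild-type male array at 3 days or with thyroxine at 7 days, the Twist1+/- female control or the Twist1+/- male thyroxine array at 3 days, and adjusted p reached 0.0949 in the others. In Twist1+/- cells it was lost without any of the 4 Twist1+/- arrays at 7 days, the female thyroxine or male control array at 3 days, or either wild-type control array at 7 days, with adjusted p up to 0.167. Etv4 had levels of 4.87, 4.97, 4.74 and 5.06 in Twist1+/- cells at 7 days, against 5.14, 5.12, 5.37 and 5.30 at 3 days, again with no overlap. In wild-type cells it had 4.75, 4.86, 5.85 and 5.69 at 7 days, against 5.20, 5.37, 5.52 and 5.79 at 3 days. The wild-type female culture was lower at 7 days, and the male culture lay high at both days. Overall Etv4 was lower at 7 days by -0.25 ± 0.11 (SE) without passing (adjusted p = 0.133), and it passed without the 7-day wild-type male thyroxine array (-0.34, adjusted p = 0.0291).

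Within Twist1+/- cells 4 of 9 members passed, the same Dusp6, Spred1, Etv5 and Fgfr2, against 14.6% of all tested genes. Within wild-type cells 0 of 9 passed in limma, against 0.111% of all tested genes, and 3 had an unadjusted p under 0.05, against 16.4%. The levels of the 2 days did not overlap for 3 of the 9 members in Twist1+/- cells (20.4% of all tested genes) and for 1, Fgfr2, in wild-type cells (5.48%). Whether the change with time differed between the genotypes was tested for each member, and 0 of 9 passed (0% of all tested genes). At an unadjusted p under 0.05 there was 1, Dusp6, against 8.73% of all tested genes.

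**Figure D2:**
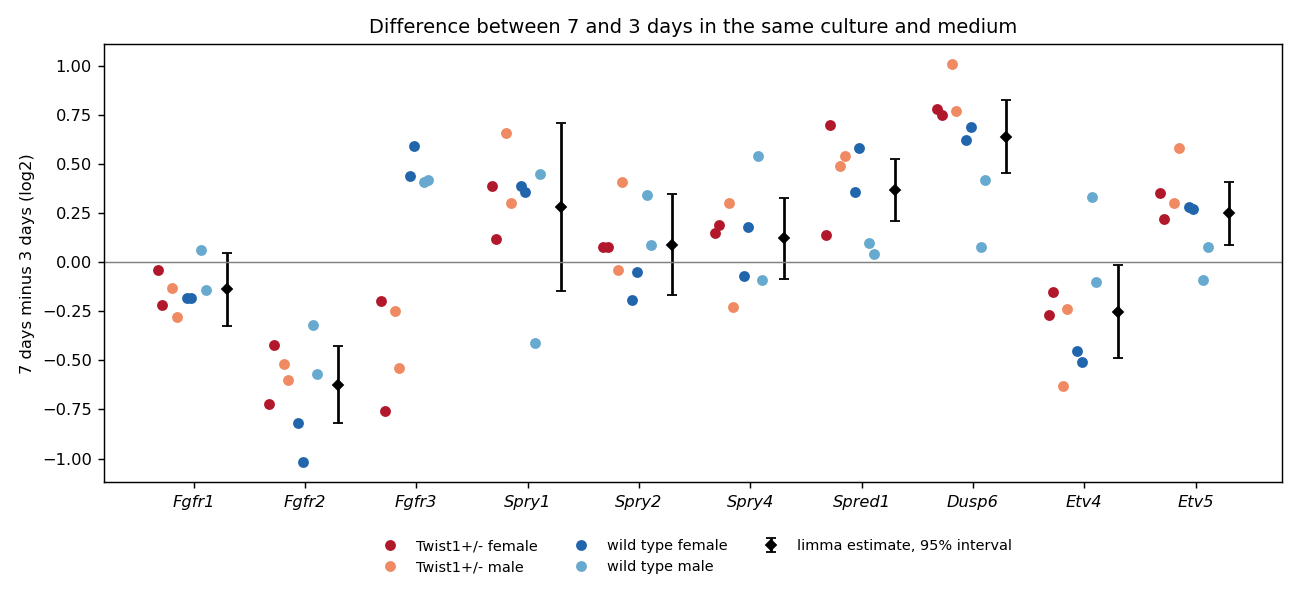
Difference between 7 and 3 days (log2) in the same culture and medium, with 2 points for each culture. Diamonds are the limma estimates with 95% intervals, which are given for the 9 tested members. All 8 points of Fgfr2 lie below 0, and all 8 of Dusp6 and of Spred1 lie above it, with those of the wild-type male culture nearest to 0 for Dusp6 and Spred1.

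Macrophage markers also differed between the days. The mean of the 14 markers was higher at 7 days by 1.79 in the Twist1+/- female, 1.35 in the Twist1+/- male and 1.58 in the wild-type female culture, and by 0.21 in the wild-type male culture. Each of the 14 was higher at 7 days on average, with Lyz2 at 12.80, against 11.91 at 3 days, and Adgre1 at 9.71, against 8.32 at 3 days. In the same order of cultures Dusp6 differed by 0.765, 0.89, 0.655 and 0.25, Spred1 by 0.42, 0.515, 0.47 and 0.07, and Etv5 by 0.285, 0.44, 0.275 and -0.005. Fgfr2 differed by -0.57, -0.56, -0.92 and -0.445, and so was also lower at 7 days in the wild-type male culture. For all 4 genes the difference was smallest in size in that culture, where the macrophage markers changed least. Among the other cultures these markers rose least in the Twist1+/- male one, where Dusp6, Spred1 and Etv5 rose most and Fgfr2 fell least. The mean of the markers of suture mesenchyme and osteoblasts differed by -0.14 to -0.08 in the 4 cultures. Of these 15 genes 11 were lower at 7 days on average. Msx2 was at 6.46, against 7.00 at 3 days, while Postn was higher, at 10.68, against 10.49 at 3 days. The 7 measured proliferation markers were all lower at 7 days, with a mean of 6.81, against 7.11 at 3 days. The part of the macrophage and proliferation markers in the results was not tested.

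**Figure D3:**
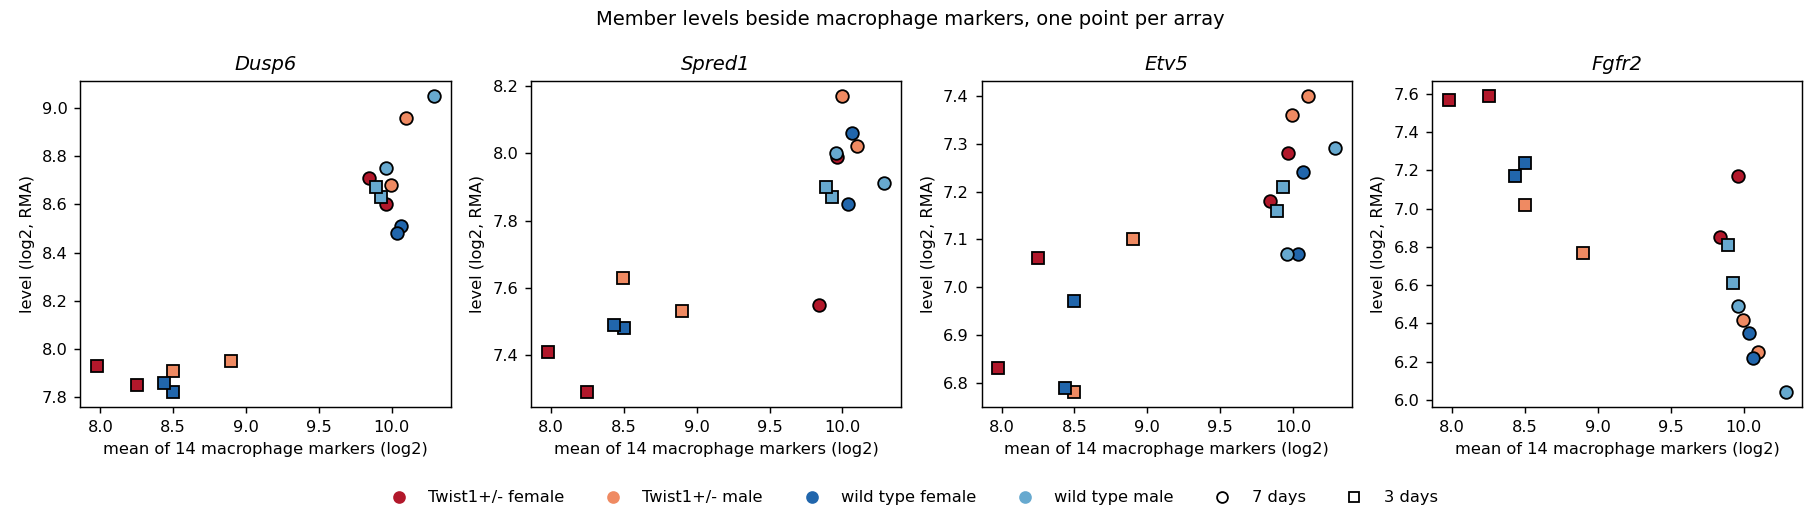
Level (log2, RMA) of Dusp6, Spred1, Etv5 and Fgfr2 on each array against the mean of 14 macrophage markers (log2). Colours are cultures, circles 7 days and squares 3 days. The 3-day arrays of the wild-type male culture lie with the 7-day arrays on the marker axis, at 9.89 and 9.93, and have Dusp6 levels of 8.63 and 8.67.

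Without the wild-type male culture the day differences over all groups were larger in size for the members named next. Those of Spry2 and Spry4 were smaller. Of the 9 members 6 then passed, against 26.1% of all tested genes: Dusp6 (0.74), Spred1 (0.47), Spry1 (0.37, adjusted p = 0.0101) and Etv5 (0.32) were higher, and Fgfr2 (-0.74) and Etv4 (-0.40, adjusted p = 0.0120) were lower at 7 days. In wild-type cells, then represented by the female culture alone, 3 members passed, Fgfr2 (-0.92, adjusted p = 0.000564), Dusp6 (0.655, adjusted p = 0.00225) and Spred1 (0.47, adjusted p = 0.0257), against 12.1% of all tested genes. In that fit the day difference in Twist1+/- minus that in wild-type cells was -0.0025 ± 0.15 for Spred1 (adjusted p = 0.997), 0.17 for Dusp6 (adjusted p = 0.805) and 0.355 for Fgfr2 (adjusted p = 0.726).

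The rest of the pathway was read from 4 lists. Of the other feedback and ERK response genes, 8 of 24 tested passed between the days, 6 higher and 2 lower, against 18.5% of all tested genes, and the median was 0.08, against -0.02. Etv1, the third ETS factor of the Etv4 and Etv5 family, rose by 0.78 ± 0.09 (SE, adjusted p = 0.000343, limma), and in the 4 cultures, Twist1+/- female, Twist1+/- male, wild-type female and wild-type male, it differed by 1.095, 0.93, 0.805 and 0.29. Dusp7, another ERK phosphatase, rose by 0.385 ± 0.08, and Mcl1, a survival factor of the Bcl2 family, by 0.29 ± 0.06. Dusp1, a phosphatase of several MAP kinases and an immediate early gene, fell by 0.75 ± 0.18 (adjusted p = 0.0138). Of the adaptors and ERK cascade, 4 of 16 passed, with Cbl (0.27), a ubiquitin ligase of activated receptors, the Ras activator Sos2 (0.295) and the adaptor Grb2 (0.24) higher and the Ras inhibitor Rasa1 (-0.305) lower, and the list's median was 0.02. Of the other receptors and co-receptors, 5 of 14 passed, with a median of -0.06. The FGF-binding protein gene Fgfbp3 fell by 0.31 ± 0.06, Flrt2, a membrane protein that binds FGF receptors, fell by 0.52 ± 0.11 and the heparan sulfate proteoglycan Gpc4 fell by 0.36 ± 0.10, while the proteoglycan Sdc3 rose by 0.18 and Fgfrl1, a receptor without a kinase domain, by 0.24. Of the ligands, 14 of 22 were bright enough, with a median of -0.06, and 1 passed, Fgf11, an intracellular family member, with a rise of 0.265 ± 0.08 (adjusted p = 0.0470).

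Within Twist1+/- cells, where 14.6% of all tested genes passed between the days, 4 of 24 response genes passed: Etv1 (1.01), Dusp7 (0.49), Mcl1 (0.37) and the AP-1 component Jun (0.31) rose. Of the adaptors and cascade genes, 3 of 16 passed, and Grb2 (0.415), Sos2 (0.43) and Cbl (0.37) rose. Of the co-receptors 0 of 14 passed in limma, with 6 at an unadjusted p under 0.05, against 29.1% of all tested genes. Of the ligands 1 of 14 passed, Fgf5, known from hair growth, which fell by 0.73 ± 0.18 (adjusted p = 0.0189, limma). Within wild-type cells 0 genes of the 4 lists passed in limma, against 0.111% of all tested genes, with 1 of 14 ligands, 4 of 14 co-receptors, 2 of 16 adaptors and cascade genes and 7 of 24 response genes at an unadjusted p under 0.05, against 16.4%.

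Of the 9 tested members 3 separated the wild-type male culture from the other 12 arrays without overlap, against 7.55% of all tested genes. Spry1 had 4.67 with thyroxine and 5.13 in control medium there at 7 days, and 5.08 with thyroxine and 4.68 in control medium at 3 days. Elsewhere it had 5.42 to 6.48, a difference between the means of -1.06. Fgfr1 had 7.71 to 7.85 there, against 8.01 to 8.47 elsewhere (-0.42), and Etv4 had 5.52 to 5.85, against 4.74 to 5.37 (0.65). Spry2 averaged 6.67 ± 0.14 (SD, n = 4 arrays) in that culture, 6.23 ± 0.06 in Twist1+/- female, 6.20 ± 0.25 in Twist1+/- male and 5.85 ± 0.11 in wild-type female cells. These are differences of 1 culture, and no test was made. There all 14 macrophage and all 7 proliferation markers were higher than the mean of the others. The macrophage list averaged 10.12, against 10.00 elsewhere, at 7 days, and 9.91, against 8.43, at 3 days. Of the 15 mesenchyme and osteoblast markers only 3 were higher there, and their mean over both days was 7.255, against 8.19 elsewhere. The part of these markers was not tested.

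The comparison of the genotypes asked whether the members differed in Twist1+/- cells, over both media and days. No member passed in limma: 0 of 9, with 1, Fgfr2, at an unadjusted p under 0.05, and 0% of all tested genes passed (619, or 4.6%, at an unadjusted p under 0.05). Adjusted p ran from 0.937 to 0.997 among the members. Fgfr2 had a mean of 6.96 over the Twist1+/- and 6.62 over the wild-type arrays, which differ by 0.34 ± 0.13 (SE, adjusted p = 0.937), and it was higher in 6 of 8 comparisons of the same sex, day and medium. It was higher in all female comparisons, by 0.35 to 0.95, while the male comparisons ran from -0.24 to 0.41. Fgfr1 differed by 0.22 ± 0.12, Spry1 by 0.245 ± 0.28, Spred1 by -0.12 ± 0.10, Dusp6 by -0.15 ± 0.12 and Etv4 by -0.31 ± 0.15. Spry2 (-0.04), Spry4 (0.01) and Etv5 (0.02) differed by less than 0.05. Levels of the genotypes overlapped for all 9 tested members, as they did for all but 0.0372% of the genes.

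The genotype differences of several members had different signs or sizes in the female and male cultures, which was not tested. How many of all tested genes did the same was not counted. Spry1 was lower in Twist1+/- female than in wild-type female cells in 4 of 4 comparisons, by -0.94 to -0.42, and higher in Twist1+/- male than in wild-type male cells in 4 of 4, by 0.62 to 1.69. Spry2 went the other way, from 0.22 to 0.61 in female and from -0.82 to -0.14 in male cells. Spry4 was higher in 4 of 4 female comparisons, by 0.16 to 0.40, and lower in 4 of 4 male ones, by -0.31 to -0.06. Fgfr1 differed by -0.27 to 0.01 in female and by 0.45 to 0.64 in male cells. Every male comparison sets the Twist1+/- male against the wild-type male culture, and sex and culture cannot be told apart with 1 culture of each kind. With that culture left out and sex in the model, the genotype difference was that of the Twist1+/- female from the wild-type female culture, 1 culture each. Fgfr2 was then higher in the Twist1+/- female culture by 0.55 ± 0.09 (SE, adjusted p = 0.00676, limma) and Spry1 lower by -0.62 ± 0.11 (adjusted p = 0.0102), 2 of 9 members, against 2.3% of all tested genes. That fit treats the arrays of a culture as independent and holds no spread between cultures of the same genotype and sex, so it compares those cultures and not the genotypes. In the Twist1+/- male culture the mean level of Fgfr2, 6.615, was below the 6.745 of the wild-type female culture.

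**Figure D4:**
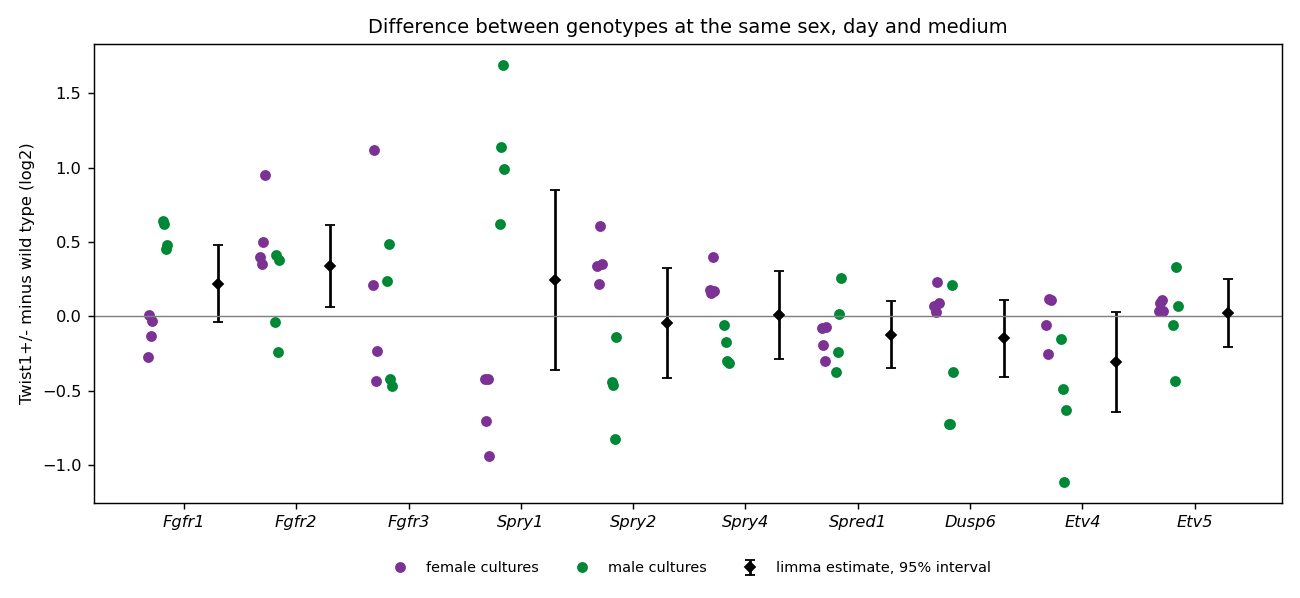
Difference between Twist1+/- and wild-type arrays (log2) at the same sex, day and medium, with 4 points for female and 4 for male cultures. Diamonds are the limma estimates with 95% intervals for the 9 tested members. The female and male points of Spry1, Spry2 and Spry4 lie on opposite sides of 0.

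The last comparison was thyroxine against control medium, in 8 pairs of arrays of the same culture and day. No member passed: 0 of 9 in limma, with 0 at an unadjusted p under 0.05, against 0.0966% of all tested genes passing (13 genes, and 825, or 6.13%, at an unadjusted p under 0.05). The member differences lay between -0.0975 (Spry2) and 0.05 (Fgfr1), and adjusted p between 0.877 and 0.993. The median size regardless of sign was 0.05 for the members and 0.06 for all tested genes.

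Among the receptors, Fgfr1 averaged 8.14 ± 0.23 with thyroxine and 8.09 ± 0.24 in control medium (SD, n = 8 arrays each), a difference of 0.05 with a 95% interval of -0.06 to 0.15. Fgfr2 averaged 6.78 ± 0.44 with thyroxine and 6.79 ± 0.55 in control medium, with an interval of -0.15 to 0.14. Among the inhibitors, Dusp6 differed by 0.03 (-0.08 to 0.14), Spred1 by -0.08 (-0.21 to 0.05), Spry1 by 0.04 (-0.14 to 0.22), Spry2 by -0.0975 (-0.27 to 0.07) and Spry4 by 0.03 (-0.16 to 0.23). The ETS factors Etv4 and Etv5 differed by -0.09 (-0.26 to 0.08) and -0.07 (-0.22 to 0.07). Over all 9 the intervals reached no lower than -0.27 and no higher than 0.23. Fgfr3, not tested, was higher with thyroxine in 6 of 8 pairs, with a mean of 3.29 with thyroxine and 3.21 in control medium.

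Of the members, Fgfr2 had the largest difference between the genotypes in its thyroxine response. In Twist1+/- cells it was lower with thyroxine in 4 of 4 pairs, by -0.32 to -0.02, and the fit gave -0.19 ± 0.09 (SE, adjusted p = 0.499, limma). In wild-type cells it was higher in 3 of 4 pairs, between -0.07 and 0.45, and the fit gave 0.18 ± 0.09 (adjusted p = 0.908). The test of the difference gave -0.37 ± 0.13 and did not pass (unadjusted p = 0.0148, adjusted p = 0.441). Dusp6 differed by 0.13 ± 0.07 in Twist1+/- and -0.06 ± 0.07 in wild-type cells, with a difference of 0.19 ± 0.10 (adjusted p = 0.581). In Twist1+/- cells, in wild-type cells and in the test between them 0 of 9 members passed, against 0.201%, 0.0149% and 0.0595% of all tested genes, and at an unadjusted p under 0.05 there were 0, 0 and 1 (Fgfr2), against 10.4%, 5.59% and 9.53%. In the 4 pathway lists 0 genes passed in any thyroxine comparison or between the genotypes in limma, with 0 to 2 a list at an unadjusted p under 0.05.

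**Figure D5:**
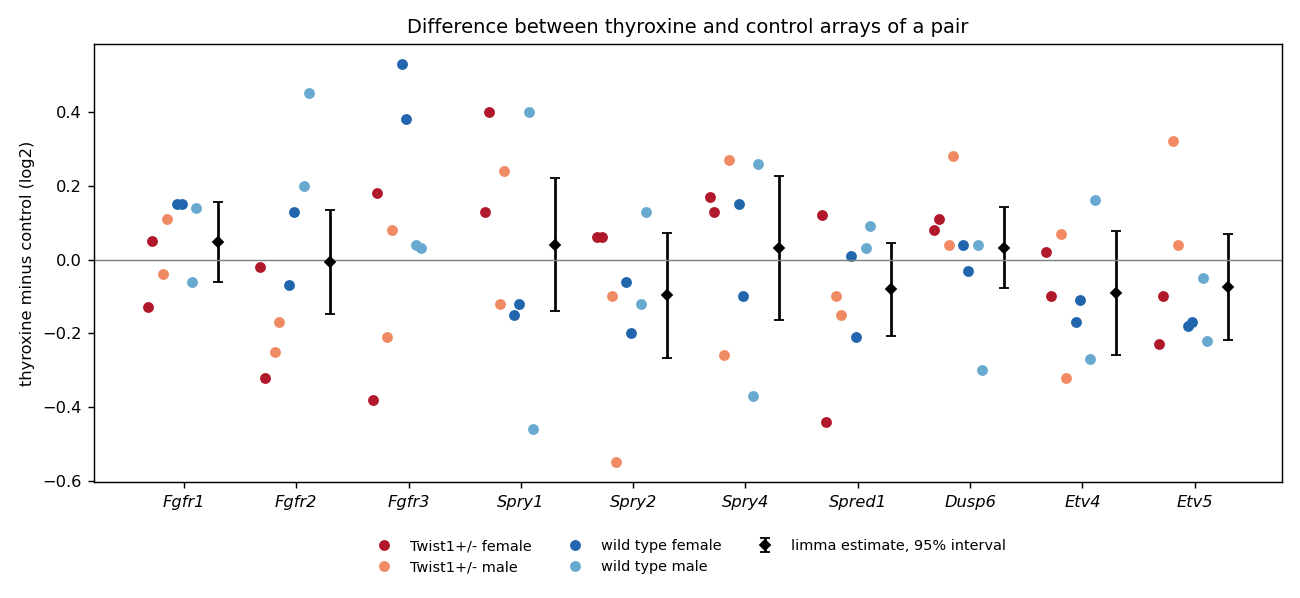
Difference between the thyroxine and the control array of a pair (log2), coloured by culture, with 2 pairs for each. Diamonds are the limma estimates with 95% intervals for the 9 tested members. The points lie on both sides of 0 for each member, and all 9 intervals include 0.

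For each member the tested gene with the most similar levels over the 16 arrays was found by Pearson correlation, as a description, since the arrays share cultures and days. The pairs, each with its r, were Fgfr1 with Sorcs2 (0.942), Fgfr2 with Cemip (0.924) and Fgfr3 with Olfr571 (0.838) for the receptors, Spry1 with Bicc1 (0.959), Spry2 with Spcs3 (0.920), Spry4 with Dusp3 (0.799), Spred1 with Cysltr1 (0.959) and Dusp6 with Nfam1 (0.974) for the inhibitors and Etv4 with Bin1 (0.933) and Etv5 with Naip6 (0.922) for the ETS factors.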

How the data were processed

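The data were the deposited log2 expression values of 41345 probe sets on 16 arrays, made by the authors with Affymetrix Expression Console and RMA, per the submitters' processing notes. RMA as a method corrects background, quantile-normalizes arrays and summarizes probes. The sources used here name no upstream genome build or annotation. Of the probe sets, 23521 had 1 gene symbol in the platform annotation, 1814 several and 16010 none, and 22180 genes were kept by their brightest probe set. Genes whose mean reached 3.905, the 40th percentile, numbered 13453 and entered limma 3.58.1, run in R 4.3.3 (trended, moderated; Benjamini-Hochberg over all tested genes). Thyroxine was tested on the differences within pairs of the same culture and day, a pairing that the labels give through genotype, sex and day. Day and genotype were tested in a model with the means of 8 groups (genotype, day, medium) and a sex term, and each culture's arrays were treated as correlated through a random block (within-culture correlation 0.202). Leaving out the culture block, making it fixed, dropping the pairing, other filters, array weights, centring, the mean of all probe sets, dropping a culture or 7-day pairs and leaving out each array or pair were tried as alternatives. The scripts were tested on simulated data. The members, the lists and the tests were chosen with earlier results of these data known. Members were named by that choice, and other pathway genes by the 4 smallest p in each list, with Fgfrl1 added after its value was seen.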

Additional observations from a re-analysis of the deposited data

Results flagged for a closer look

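The day difference of Fgfr3 had opposite signs in the genotypes. It was lower at 7 days in 4 of 4 comparisons in Twist1+/- cells, by -0.44 on average, and higher in 4 of 4 comparisons in wild-type cells, by 0.47. The gene lay below the level used for testing, so the difference was not tested in the main analysis. With all genes kept it was -0.90 ± 0.18 (SE) and did not pass (adjusted p = 0.465, limma). How many other genes had opposite signs in this way was not counted.

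The genotype difference of 3 Sprouty genes had opposite signs in the sexes, with 4 of 4 comparisons each way. The 4 comparisons of a sex set the same pair of cultures against each other. The share of all tested genes with such opposite signs was not counted. Spry1 averaged -0.62 in female and 1.11 in male cells, Spry2 averaged 0.38 in female and -0.465 in male cells, and Spry4 averaged 0.23 in female and -0.21 in male cells. The difference between the sexes was not tested, and with 1 culture of each genotype and sex it cannot be told apart from a difference between cultures.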

How the results depend on the processing

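The falls of Fgfr2 and rises of Dusp6 and Spred1 between 3 and 7 days over all groups passed in 16 of 16 fits without 1 array and in 9 of 9 other alternatives, and Etv5 passed in 5 and 6 of them. No member passed for thyroxine under any alternative. Sign changes are given below, and their causes were not tested. The number of arrays and the single culture of each genotype and sex limit every result. Dim probe sets, such as that of Fgfr3 and the second of Dusp6, lay below the level used for testing. The second Etv5 probe set, at 4.08 to 4.97, lay above that level on all arrays.

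Without the wild-type male culture, when the genotype difference is that of the Twist1+/- female from the wild-type female culture, the genotype differences of Fgfr1 (-0.105), Spry1 (-0.62), Spry2 (0.38) and Dusp6 (0.105) changed sign, and 310 genes and 2 members passed between the genotypes. The test of the day difference between the genotypes changed sign for Fgfr1 (0.0125), Spry1 (-0.0075), Spry4 (0.0475), Spred1 (-0.0025) and Etv4 (0.1575), as did the wild-type day difference of Spry2 (-0.12) and the wild-type thyroxine differences of Spry4 (0.025) and Dusp6 (0.005). The day difference was then called for 3017 genes in Twist1+/- and for 1623 genes and 3 members in wild-type cells, and thyroxine for 1 gene in all pairs, 0 in wild-type pairs and 0 between the genotypes. Without the Twist1+/- pairs at 7 days, thyroxine differences changed sign over all pairs for Fgfr2 (0.0733), Spry1 (-0.0533), Spry4 (-0.025) and Dusp6 (-0.0217), in Twist1+/- pairs for Spry4 (-0.045), Spred1 (0.01) and Etv4 (0.045), and between the genotypes for Spry1 (-0.12) and Spry2 (0.07), and 0 genes were called in the 4 thyroxine comparisons. The count was also 0 in all 4 with no replicate block, that is without the pairing, and with no trend.

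With each array centred on its median, signs changed for Fgfr2 with thyroxine over all pairs (0.0125), Fgfr1 in Twist1+/- pairs (0.02), Spry2 between the genotypes in the day difference (-0.0025) and Spry4 (-0.0325) and Etv5 (-0.0175) between the genotypes. With the mean of all probe sets, Etv5 between the genotypes was -0.0119 and Dusp6 with thyroxine in wild-type pairs 0.01, and thyroxine was called for 47 genes in Twist1+/- pairs and 5 between the genotypes. Thyroxine in wild-type pairs was called for 4 genes with array weights and 0 with no filter. The wild-type day difference was called for 513 genes and 2 members with the culture as a fixed block, which was the paired fit, for 57 genes and 1 member with the stricter filter, for 8 genes with no filter and for 8 with no culture block.

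Leaving out 1 pair, genes called for thyroxine ranged from 0 to 29 over all pairs, 0 to 232 in Twist1+/- pairs, 0 to 9 in wild-type pairs and 0 to 202 between the genotypes. Thyroxine differences over all pairs changed sign for Fgfr2 from -0.046 to 0.034, Spry1 from -0.029 to 0.11, Spry4 from -0.034 to 0.096 and Dusp6 from -0.0013 to 0.066. Thyroxine differences in Twist1+/- pairs changed sign for Fgfr1 from -0.025 to 0.02, Spry2 from -0.28 to 0.02, Spry4 from -0.03 to 0.18 and Etv5 from -0.13 to 0.14. Thyroxine differences in wild-type pairs changed sign for Spry1 from -0.22 to 0.055, Spry2 from -0.14 to 0.02, Spry4 from -0.14 to 0.12, Spred1 from -0.095 to 0.055 and Dusp6 from -0.13 to 0.005. Thyroxine differences between the genotypes changed sign for Spry2 from -0.22 to 0.083, Spry4 from -0.037 to 0.22 and Etv4 from -0.052 to 0.083. Leaving out 1 array, genes called for the day ranged from 1649 to 2829 over all groups, 953 to 2146 in Twist1+/- cells with 2 to 4 members, 4 to 494 in wild-type cells with 0 to 1 members and 0 to 2 between the genotypes. Day differences in Twist1+/- cells changed sign for Spry2 from -0.0099 to 0.27. Day differences in wild-type cells changed sign for Spry1 from -0.042 to 0.44 and Spry2 from -0.12 to 0.21. Day differences between the genotypes changed sign for Fgfr1 from -0.16 to 0.046, Fgfr2 from -0.037 to 0.27, Spry1 from -0.069 to 0.41, Spry2 from -0.082 to 0.25, Spry4 from -0.15 to 0.078 and Etv4 from -0.32 to 0.037. Genotype differences changed sign for Spry2 from -0.13 to 0.041, Spry4 from -0.049 to 0.066 and Etv5 from -0.034 to 0.082.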
